A study of Mus musculus with 12 samples.

Results

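The genes described here are 10 factors and targets of Wnt/β-catenin signalling, taken by symbol from the 45777 genes of the deposited gene table. They are the feedback inhibitors Axin2, Nkd1, Notum, Znrf3 and Rnf43, the receptor Lgr5, the nuclear factors Tcf7, Lef1 and Sp5, and Ctnnb1, the gene of β-catenin. RNA was sequenced from 4 groups of 3 libraries each. These were primary mouse liver sinusoidal endothelial cells (LSECs, the fenestrated endothelium of the liver's capillaries) in co-culture with Hepa1-6 cells, LSECs alone, Hepa1-6 cells in co-culture with LSECs, and Hepa1-6 cells alone. Hepa1-6 is a single mouse hepatoma cell line, labelled H1-6. In co-culture, each well held 500000 LSECs, with 100000 Hepa1-6 cells above them in an insert with 3 μm pores. The 2 cells thus shared medium but not a surface. Per the labels' protocols, both cells were washed on the next day and then kept for 24 h in DMEM with 2% serum and antibiotics before RNA was taken. The labels name no mouse strain, age or number of animals for the LSECs. They do not say whether libraries of a group came from separate cultures, so that p-values measure only the spread between these libraries, which may be technical.

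In canonical Wnt signalling, a secreted Wnt protein binds a Frizzled receptor with LRP5 or LRP6, which stops a complex built on axin from marking β-catenin for destruction. β-catenin then enters the nucleus, binds proteins of the TCF and LEF family and turns on target genes, many of which feed back on the pathway. In the liver, endothelial cells around the central vein are known as a source of Wnt2, Wnt9b and the Wnt amplifier Rspo3, and hepatocytes next to them carry high levels of targets such as Axin2, Lgr5 and Glul.

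Library totals ranged from 32761492 to 48870698 counts, and a count of 0 allows up to 3 counts, or 0.0614 to 0.0916 CPM (counts scaled to library size), which covers counting error only. Marker genes placed each library with the first cell named in its title. Summed over 10 pan-endothelial markers, LSEC libraries stood at 8605 to 10431 CPM and Hepa1-6 libraries at 5.4 to 7.52 CPM. Over 10 plasma protein markers of hepatoma cells the sums were 32 to 58.2 CPM and 4287 to 5384 CPM. Of these 10 markers 6 were lower and 3 higher in LSECs alone than in Hepa1-6 cells alone. Alb had 1178 counts in co-cultured LSECs and 892 in LSECs alone. Ahsg had 149 and 122 there and none in Hepa1-6 cells. The source of these transcripts in LSEC libraries was not tested. LSEC libraries also held macrophage transcripts, 3019 to 3964 CPM in co-culture and 1768 to 2590 CPM alone over 10 markers, with none at 0. By edgeR 2 of these markers rose with co-culture and 2 fell. LSEC replicate 1 stood apart in both cultures. Chi-square divided by its degrees of freedom was 166.6 to 271.1 between its counts and those of replicates 2 and 3. It was 4.038 and 5.106 between replicates 2 and 3 of a group, and 3.173 to 5.558 among Hepa1-6 libraries. In that replicate genes with short transcripts were higher and genes with long ones lower. The median log2 difference from replicates 2 and 3 was 0.55 for the 3216 genes with the shortest transcripts and -0.56 for the 3216 with the longest in co-culture. Alone it was 0.66 and -0.65, over 3201 genes each. The ratios between the cells and the LSEC fold changes of the members are therefore also given without replicate 1.

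The first comparison set the levels of the 10 genes in LSECs against those in Hepa1-6 cells. The inhibitors, Lgr5, Tcf7, Lef1 and Sp5 were all lower in LSECs, where Lgr5 and Lef1 were nearly absent, and Ctnnb1 was higher. In each of these 9 lower genes every LSEC library lay below every Hepa1-6 library, on the CPM scale and on the authors' TPM scale. By edgeR, all 10 genes differed between LSECs alone and Hepa1-6 cells alone, among 70.0% of 16411 tested genes that did. The count was again 10 between the co-cultured cells, among 74.0% of 16334. Of all tested genes, 32.8% were lower and 37.2% higher in LSECs alone, and 34.9% were lower and 39.1% higher in co-cultured LSECs. Notum, Rnf43, Lgr5 and Lef1 fell below the filter on low counts within the LSEC libraries and entered this comparison through Hepa1-6 cells, so that their call follows from the filter. In bulk libraries, fewer cells with a transcript and less transcript per cell cannot be told apart.

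**Figure D1:**
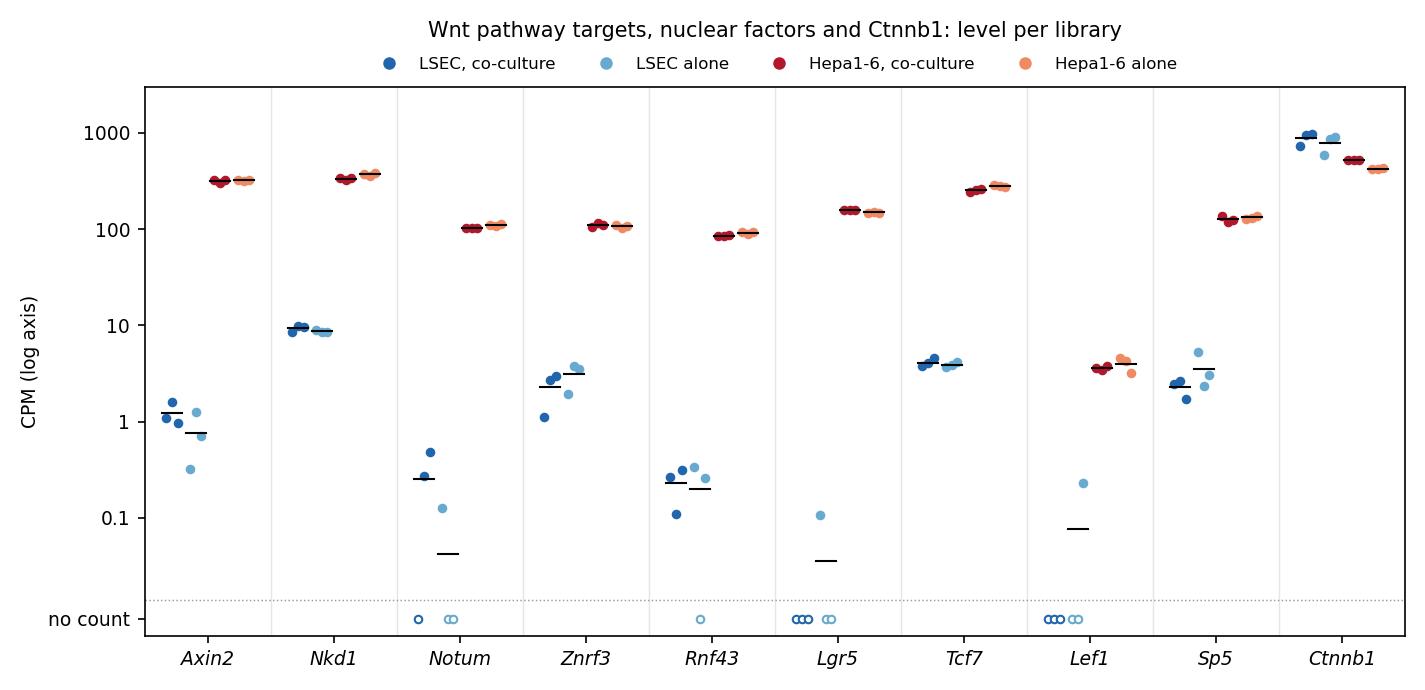
Level of each of the 10 genes in every library, in CPM on a log axis, with 3 points per group, black lines at group means and open points for libraries with no count. For 9 genes the LSEC points lie below the Hepa1-6 points, and for Ctnnb1 they lie above.

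Axin2 encodes a scaffold of the β-catenin destruction complex and is a widely used readout of the pathway (chr11:108917828-108950783, mm10). It stood at 1.09, 1.60 and 0.975 CPM in co-cultured LSECs and at 0.32, 1.25 and 0.717 CPM in LSECs alone, against 302 to 323 CPM over the 6 Hepa1-6 libraries. Its mean was 259-fold lower in LSECs in co-culture and 420-fold lower in LSECs alone, and 246-fold and 326-fold lower without LSEC replicate 1. The LSEC values rest on 34 to 58 counts per library in co-culture and 15 to 44 alone.

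Nkd1, which binds Dishevelled and dampens the signal (chr8:88521342-88594887), stood at 8.60, 9.87 and 9.63 CPM in co-cultured LSECs and at 9, 8.52 and 8.54 CPM in LSECs alone, against 323 to 382 CPM in Hepa1-6 cells. Its mean was 35.6-fold lower in LSECs in co-culture and 42.7-fold lower alone, and 34.2-fold and 43.4-fold lower without LSEC replicate 1. The LSEC libraries were close to each other and replicate 1 did not stand out for this gene, with log2 differences from the mean of replicates 2 and 3 of -0.17 in co-culture and 0.07 alone.

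Notum encodes a secreted enzyme that removes the lipid Wnt proteins need (chr11:120653788-120661809). It had 0, 10 and 17 counts in co-cultured LSECs and 6, 0 and 0 counts in LSECs alone, against 3496 to 5029 counts per Hepa1-6 library. Its mean was 404-fold lower in LSECs in co-culture, at 0.254 CPM against 103 CPM in Hepa1-6 cells, and 2578-fold lower in LSECs alone, at 0.0426 CPM against 110 CPM. In LSECs alone replicate 1 held all counts, and without it Notum was at least 2573-fold lower. In co-culture the ratio was 269-fold without replicate 1 and 747-fold without replicate 3, so that both ratios have a low precision.

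Znrf3 and Rnf43 encode related membrane ubiquitin ligases that clear Frizzled receptors from the cell surface. Znrf3 (chr11:5276329-5444847) stood at 1.11, 2.72 and 2.98 CPM in co-cultured LSECs and at 1.94, 3.76 and 3.55 CPM in LSECs alone, against 103 to 115 CPM in Hepa1-6 cells. Replicate 1 was the lowest LSEC library in both cultures, by a log2 of -1.06 and -0.77 against the mean of replicates 2 and 3. Znrf3 has long transcripts of up to 7199 bases. Tcf7, with models of up to 10195 bases, differed by -0.17 and -0.09. The part of transcript length was not tested for single genes. Rnf43 (chr11:87663087-87735539) had 11, 4 and 11 counts in co-cultured LSECs and 16, 0 and 9 counts in LSECs alone, or 0.23 and 0.20 CPM on average, against 84.0 to 92.5 CPM in Hepa1-6 cells. The means in LSECs were 48.3-fold lower for Znrf3 and 369-fold lower for Rnf43 in co-culture, and 34.6-fold and 458-fold lower alone. Without replicate 1 Znrf3 was 38.5-fold lower in co-culture and 29.2-fold lower alone, and Rnf43 was 400-fold lower in co-culture and 709-fold lower alone, a ratio that rests on 9 counts.

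Lgr5 encodes a receptor for R-spondins, the secreted proteins that shield Frizzled from ZNRF3 and RNF43, and marks Wnt-responsive stem cells in several tissues (chr10:115450314-115587780). It had no count in any of the 3 co-cultured LSEC libraries and 5, 0 and 0 counts in LSECs alone, against 148 to 159 CPM in Hepa1-6 cells. Taking 3 counts over the group as the limit, Lgr5 was at least 5964-fold lower in co-cultured LSECs than in co-cultured Hepa1-6 cells. In LSECs alone it was 4203-fold lower, on 5 counts of replicate 1. Without replicate 1 no LSEC library held a count, and the limits were at least 3771-fold in co-culture and at least 3495-fold alone.

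Tcf7 and Lef1 encode the DNA-binding partners of β-catenin that are best known from T cells. Tcf7 (chr11:52246527-52283383) stood at 3.77, 4.04 and 4.53 CPM in co-cultured LSECs and at 3.71, 3.85 and 4.13 CPM in LSECs alone, against 245 to 287 CPM in Hepa1-6 cells. Its mean was 61.9-fold lower in LSECs in co-culture and 72.2-fold lower alone, and 59.4-fold and 70.5-fold lower without LSEC replicate 1. Lef1 (chr3:131110277-131224357) had no count in co-cultured LSECs and 0, 0 and 8 counts in LSECs alone, against 3.21 to 4.55 CPM in Hepa1-6 cells. It was at least 136-fold lower in co-cultured LSECs, and at least 86.1-fold without replicate 1. The 52.5-fold ratio in LSECs alone rests on 8 counts of replicate 3. It was at least 110-fold without that library and 35-fold without replicate 1. Of 15 T and NK cell markers, 1 reached 1 CPM in co-cultured LSECs and 2 in LSECs alone. Their sum was 3.31 to 3.81 CPM and 3.35 to 4.76 CPM. Lck had 181 counts in co-cultured LSECs and 186 in LSECs alone, Il7r 88 and 174, and Cd4 17 and 66. In co-cultured LSECs 5 of the markers had no count and in LSECs alone 7, with Cd3g and Cd2 at 0 in both. The part of T and NK cells in the Tcf7 and Lef1 values was not tested.

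Sp5 encodes a zinc finger repressor that is itself turned on by β-catenin (chr2:70474923-70477726). It stood at 2.49, 2.64 and 1.72 CPM in co-cultured LSECs and at 5.29, 2.35 and 3.04 CPM in LSECs alone, against 119 to 137 CPM in Hepa1-6 cells. The highest LSEC value came from replicate 1 of LSECs alone, a log2 of 0.86 above the mean of replicates 2 and 3. In co-culture replicate 1 was 0.16 above it. Sp5 has a short transcript of 2097 bases, and the part of its length was not tested. Its mean was 55.3-fold lower in LSECs in co-culture and 37.1-fold lower alone, and 57.9-fold and 48.9-fold lower without LSEC replicate 1.

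The sequence before the Sp5 start is shown because it held the most matches to the TCF and LEF site among the members' windows, and it was chosen for that after the search. RefSeq promoter windows on GRCm38.p6 were available for 7 of the 10 genes, in 13 windows, and were searched on both strands for the motif CTTTGAA, for its variant CTTTGAT, for the motif CTTTGTA and for its variant CTTTGTT. Sp5 held 2 matches and 1 internal Lef1 start held 1, with no overlap between matches. The windows did not cover every start in use. The only Nkd1 window lay at the start of NM_001163660, which held 0% to 0.0662% of Nkd1 counts, so that the start of NM_027280 was not searched. The only Axin2 window lay at the start of NM_015732, and the starts of its other models were not searched. Of all 32851 windows of the same length, 14.8% held at least 1 match and 1.43% held 2 or more. The 250 bases before the Sp5 start follow on the plus strand (chr2:70474673-70474922, GRCm38.p6), with the matches in capitals at -222 to -216, where the site reads on the other strand, and at -104 to -98.
Sp5 promoter: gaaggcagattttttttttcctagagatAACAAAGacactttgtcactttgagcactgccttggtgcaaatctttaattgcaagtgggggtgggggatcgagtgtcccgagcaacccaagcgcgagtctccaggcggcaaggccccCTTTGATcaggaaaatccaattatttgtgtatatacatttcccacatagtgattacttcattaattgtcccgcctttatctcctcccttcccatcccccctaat
A match is a description of the letters and not evidence of binding in these cells.

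Ctnnb1 encodes β-catenin, which also links cadherins to the cytoskeleton at cell junctions (chr9:120933400-120960507). It stood at 736, 954 and 980 CPM in co-cultured LSECs and at 593, 866 and 912 CPM in LSECs alone, against 515 to 526 CPM in co-cultured Hepa1-6 cells and 417 to 428 CPM in Hepa1-6 cells alone. Every LSEC library lay above every Hepa1-6 library, and replicate 1 was the lowest of each LSEC group. The log2 difference of LSECs over Hepa1-6 cells by edgeR was 0.79 (SE 0.13, adjusted p = 0.0015) in co-culture and 0.93 (SE 0.18, adjusted p = 0.00371) alone. Without LSEC replicate 1 it was 0.89 in co-culture and 1.07 alone. All 13 alternatives in each comparison kept this call.

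Levels of different genes can be compared only per length, and the authors' TPM values were used for that. In co-cultured Hepa1-6 cells the order was Ctnnb1 at 296 ± 2.88 TPM, Tcf7 at 170 ± 11.5, Nkd1 at 162 ± 5.94, Axin2 at 149 ± 7.56, Sp5 at 124 ± 7.85, Notum at 82.8 ± 2.51, Lgr5 at 69.5 ± 0.992, Rnf43 at 40.9 ± 1.34, Znrf3 at 32.2 ± 1.30 and Lef1 at 2.04 ± 0.108 TPM (SD, n = 3). The order was the same in Hepa1-6 cells alone, and in both groups Tcf7 and Nkd1 were the only neighbours whose libraries overlapped. In co-cultured LSECs Ctnnb1 stood at 516 ± 135 TPM, followed by Nkd1 at 4.53 ± 0.861, Sp5 at 2.23 ± 0.497, Tcf7 at 0.924 ± 0.25, Znrf3 at 0.697 ± 0.379 and Axin2 at 0.556 ± 0.18 TPM. There the libraries of Tcf7 and Znrf3 overlapped, as did those of Znrf3 and Axin2. Axin2 ranked 1096 of 21239 genes with a TPM above 0 in co-cultured Hepa1-6 cells and 14050 of 21671 in co-cultured LSECs.

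The deposited transcript table was used to see which transcript models carried the counts. Tcf7 is of interest there because TCF and LEF genes are known to make shorter proteins that lack the β-catenin-binding start and act as repressors. In Hepa1-6 cells 80% to 83.8% of Tcf7 counts per library lay on the 2 models with a shorter 3′ end, led by NM_001313981 with 76.6% to 80.8%. In LSECs 100% lay on the 10 models whose 3′ end reaches 5756 bases further, to chr11:52246527, and none on the shorter models. Models that begin past the annotated start codon (chr11:52282215-52282217) held 0.942% to 1.34% of counts in Hepa1-6 libraries. In LSECs they held 97.4%, 23.8% and 0% in co-culture and 97.7%, 0% and 0% alone, on 136 to 174 counts per library, so that replicate 1 decided this share. The extended models overlap Skp1a, a gene on the opposite strand, over 332 bases, and Skp1a stood at 170 and 151 CPM in LSECs in co-culture and alone, against 306 and 323 CPM in Hepa1-6 cells. Whether reads of Skp1a entered the Tcf7 counts was not tested, and the strand setting is not given in the sources used here. The extended models reach 10195 bases and NM_001313981 has 2695, so that TPM, which divides by length, sets Tcf7 lower in LSECs relative to its CPM.

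**Figure D2:**
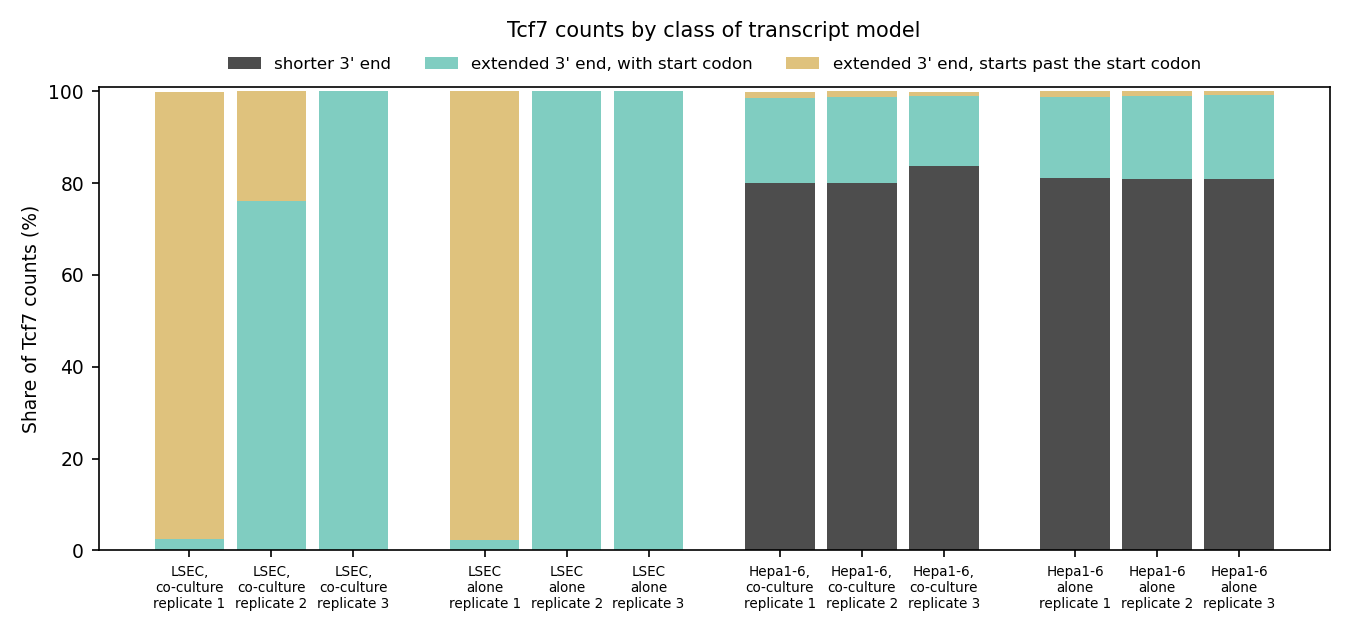
Share of the Tcf7 counts of each library, in percent, by class of transcript model (shorter 3′ end, extended 3′ end with the start codon, extended 3′ end starting past the start codon). LSEC libraries have no counts on the shorter models, and Hepa1-6 libraries have 80% to 83.8% there.

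In Hepa1-6 cells 91.2% to 100% of Lef1 counts lay on the 4 models that begin before the first annotated start codon, and 0% to 8.81% on the 5 that begin past it. Nkd1 counts lay at 96.9% to 98.9% on its model NM_027280 in Hepa1-6 cells, against 99.1% to 100% in LSECs. Ctnnb1 counts lay at 99.8% to 100% on NM_007614 in both cells. Znrf3 counts in Hepa1-6 cells were divided between its 2 models, which start at different positions, with 75.5% to 88.1% on NM_001290501. Axin2 has 6 models, and NM_015732 held 36.1% to 52.8% of its counts in Hepa1-6 cells.

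The genes whose pattern was most like that of Axin2 over the 12 libraries, by Pearson's r of log2(CPM + 0.5), were Aim2 (r = 0.9995), Grb14 (r = 0.9992), Kif18b (r = 0.9991), Onecut2 (r = 0.9990) and Tfcp2l1 (r = 0.9989). Among the members r with Axin2 was 0.9970 for Nkd1 and Tcf7, 0.9841 for Sp5 and -0.8671 for Ctnnb1. Any gene that is high in all Hepa1-6 libraries and low in all LSEC libraries gives such a value, and 6.38% of 17345 genes had an r above 0.99.

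The genes that make, release and receive Wnt signals were divided between the cells. Of 117 listed pathway genes 86 were tested between the co-cultured cells, and 36 were higher and 40 lower in LSECs, or 88.4% called, where 74.0% of all tested genes were. Alone, 87 were tested, with 35 higher and 36 lower, or 81.6% called, where 70.0% of all tested genes were. Of the 86 genes 14 were below the filter within LSECs and 17 within Hepa1-6 cells, and of the 87 these were 14 and 19, so that they entered through the cell where they are high and the counts follow in part from the filter. Wnt2 stood at 73.9 ± 4.46 CPM in co-cultured LSECs and 43.5 ± 3.72 CPM in LSECs alone, and Rspo3 at 33.5 ± 2.27 and 22.9 ± 2.46 CPM, with no count of either in any Hepa1-6 library. Wnt9b was far lower, at 0.328 and 0.315 CPM in LSECs, and also had no count in Hepa1-6 cells. Wls, the carrier that brings Wnt proteins to the cell surface, stood at 165 ± 25.2 and 183 ± 40.4 CPM in LSECs, against 3 counts in all in co-cultured Hepa1-6 cells and 9 in Hepa1-6 cells alone. Porcn, which attaches the lipid to Wnt proteins, stood at 3.12 CPM in co-cultured LSECs and 1.15 CPM in co-cultured Hepa1-6 cells.

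Hepa1-6 cells carried other Wnt genes than LSECs did. Wnt6 stood at 0.552 CPM in co-cultured LSECs and 0.0355 CPM in LSECs alone, against 228 and 217 CPM in Hepa1-6 cells. Wnt5a stood at 0.412 and 0.67 CPM in LSECs, against 70.3 CPM in both Hepa1-6 groups. Wnt10a had no count in co-cultured LSECs and 4 counts in LSECs alone, against 49.9 and 44.0 CPM in Hepa1-6 cells. Of the 19 listed Wnt genes, 2 reached 1 CPM in co-cultured LSECs and 3 in LSECs alone, and 3 did so in each Hepa1-6 group.

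Receptors, inhibitors and TCF genes differed as well. Of 21 listed receptors 18 were tested between the co-cultured cells, and 7 were higher and 8 lower in LSECs. Fzd10, a Frizzled receptor, stood at 0.0624 CPM in co-cultured LSECs against 64.0 CPM in co-cultured Hepa1-6 cells, and Kremen1, a receptor for Dickkopf proteins, at 75.9 CPM against 12.6 CPM. Of 14 listed inhibitors outside the members, none reached 1 CPM in Hepa1-6 cells, while 3 did in co-cultured LSECs and 4 in LSECs alone, among them Frzb at 23.3 and 23.6 CPM. The member Notum, also secreted, went the other way, at 103 and 110 CPM in Hepa1-6 cells and 0.254 and 0.0426 CPM in LSECs. Tcf7l1, the family member known mainly as a repressor, stood at 36.6 and 40.7 CPM in LSECs, against 0 counts in Hepa1-6 cells in co-culture and 3 in Hepa1-6 cells alone. Tcf7l2 stood at 14.4 and 12.4 CPM in LSECs, against 33.3 and 35.2 CPM in Hepa1-6 cells. Tbx3 and Lect2, targets of the pathway in hepatocytes, stood at 0.161 and 0.0478 CPM in co-cultured LSECs, against 202 and 106 CPM in co-cultured Hepa1-6 cells.

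**Figure D3:**
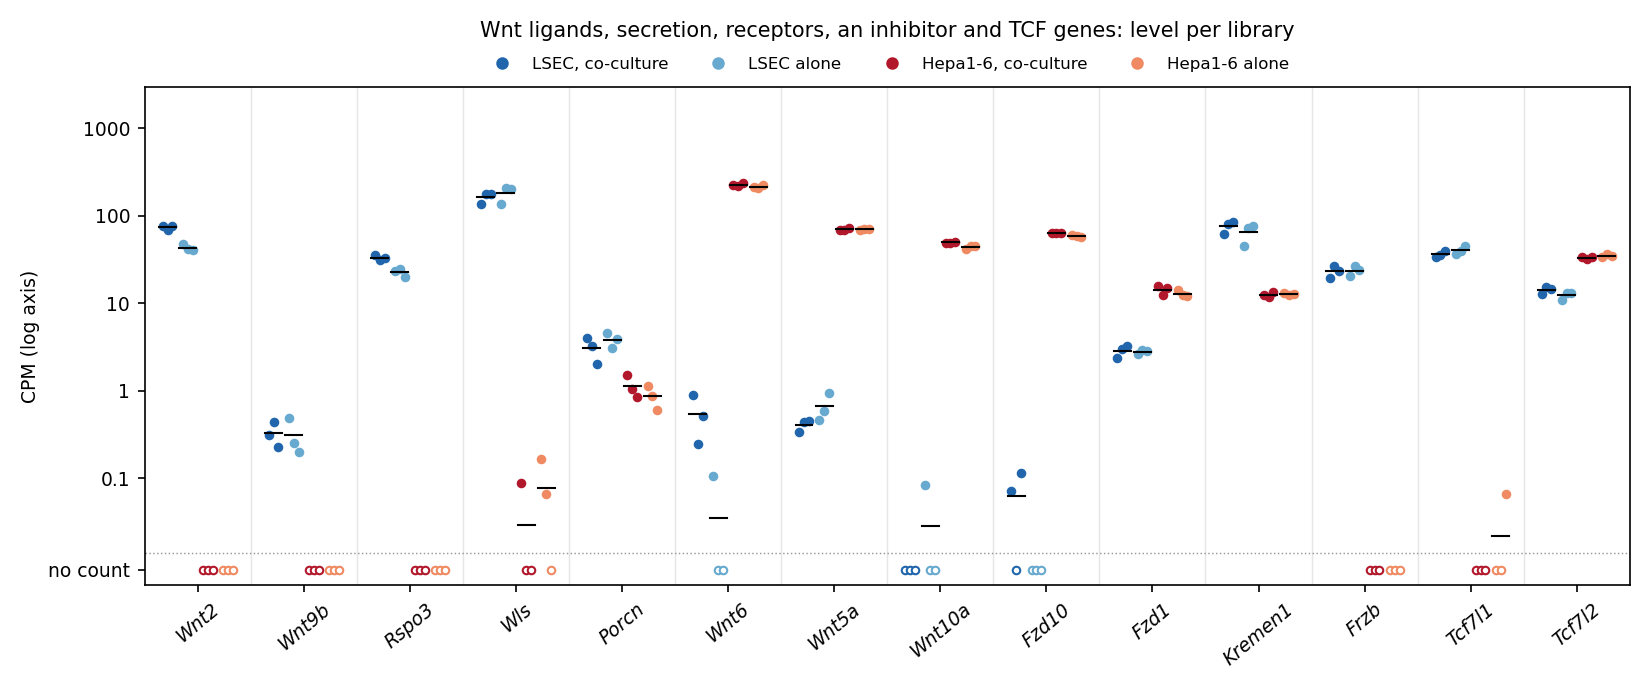
Level per library of 14 pathway genes, in CPM on a log axis, with 3 points per group, black lines at group means and open points for libraries with no count. Wnt2, Wnt9b, Rspo3 and Frzb have no count in any Hepa1-6 library, and Wnt6, Wnt5a, Wnt10a and Fzd10 stand below 1 CPM in every LSEC library.

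The second comparison asked how Hepa1-6 cells differ when LSECs share their medium. Ctnnb1 rose by 23.2% and Lgr5 by 6.28%, while Nkd1 fell by 9.97%, Tcf7 fell by 9.38%, Rnf43 fell by 7.01% and Notum fell by 6.63%. Axin2, Sp5, Znrf3 and Lef1 did not pass the test. edgeR thus called 6 of 10 members, 2 higher and 4 lower, where 15.5% of 14796 tested genes were called, 8.50% higher and 7.03% lower. The members' median log2 fold change was -0.08, against -0.004 over all tested genes.

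Ctnnb1 stood at 520, 526 and 515 CPM in co-cultured Hepa1-6 cells, against 421, 417 and 428 CPM in Hepa1-6 cells alone. The groups did not overlap, and the log2 fold change was 0.30 (SE 0.02, edgeR adjusted p = 1.08e-08). It was called in 12 of 13 alternatives, the exception being a fit of all 12 libraries together, in which no member was called.

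Among the inhibitors, Nkd1 stood at 337, 323 and 341 CPM in co-cultured Hepa1-6 cells, against 372, 358 and 382 CPM in Hepa1-6 cells alone. Every co-culture library was lower, with a log2 fold change of -0.15 (SE 0.03, edgeR adjusted p = 0.000981). Notum stood at 103, 102 and 103 CPM in co-culture, against 111, 107 and 112 CPM alone (log2 -0.10, SE 0.03, edgeR adjusted p = 0.0422). Rnf43 stood at 84, 84.5 and 86.7 CPM in co-culture, against 92.4, 89.5 and 92.5 CPM alone (log2 -0.10, SE 0.03, edgeR adjusted p = 0.0454). Axin2, the common readout, differed little, with 323, 302 and 322 CPM in co-culture, against 321, 315 and 323 CPM alone (log2 -0.02, SE 0.03, edgeR adjusted p = 0.753). Znrf3, the partner of Rnf43, had a log2 fold change of 0.04 (SE 0.04, edgeR adjusted p = 0.571). Of the 5 inhibitors 3 thus fell and 2 did not pass the test.

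Lgr5 stood at 159, 159 and 158 CPM in co-cultured Hepa1-6 cells, against 148, 152 and 148 CPM in Hepa1-6 cells alone. The groups did not overlap, but the difference was small, with a log2 fold change of 0.09 (SE 0.03, edgeR adjusted p = 0.04). Tcf7 stood at 245, 256 and 263 CPM in co-culture, against 287, 280 and 276 CPM alone (log2 -0.14, SE 0.03, edgeR adjusted p = 0.00151). Sp5 overlapped between the groups (log2 -0.06, SE 0.04, edgeR adjusted p = 0.319), as did Lef1, which rests on 124 to 193 counts per library (log2 -0.14, SE 0.15, edgeR adjusted p = 0.61).

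The same 6 members were those whose libraries did not overlap between the groups, 2 higher and 4 lower, where 30.7% of all tested genes did not overlap, 15.9% higher and 14.8% lower. The calls other than Ctnnb1 depended on single libraries and on the fit. The count was 3 without co-culture replicate 1 or 2, or without replicate 1 or 3 of the cells alone. It was 1, Ctnnb1, with limma on log2(TPM + 1). Across 13 alternatives Nkd1 and Tcf7 were called in 10, Notum and Rnf43 in 5 and Lgr5 in 4. Of 10 sinusoidal endothelial markers 5 were at 0 in both Hepa1-6 groups, and 1 of 3 tested rose, with their sum at 37.6 to 38.9 CPM in co-culture and 27.7 to 30.3 CPM alone. That marker, Stab1, stood at 37.1 CPM in co-cultured Hepa1-6 cells and 26.9 CPM in Hepa1-6 cells alone (log2 0.46, SE 0.05, edgeR adjusted p = 2.89e-06). Of 10 pan-endothelial markers Cdh5, Tek, Erg, Robo4 and Emcn were at 0 in both groups, with sums of 5.73 to 7.52 CPM in co-culture and 5.4 to 6.47 CPM alone. The macrophage marker Adgre1 had 27 counts in co-culture and 4 alone, and the stellate cell marker Reln 16 and 0. Other markers of these lists went the other way. Mrc1 had 13 counts in co-culture and 38 alone, Stab2 11 and 20, and Pdgfrb 0 and 11. Fcgr2b and Csf1r were also lower in co-culture. The macrophage markers Marco, Cd5l, Clec4f, Vsig4 and Timd4 had no count in either Hepa1-6 group. The markers named singly here were picked after their values were seen, and the part of LSEC material in the member values was not tested.

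**Figure D4:**
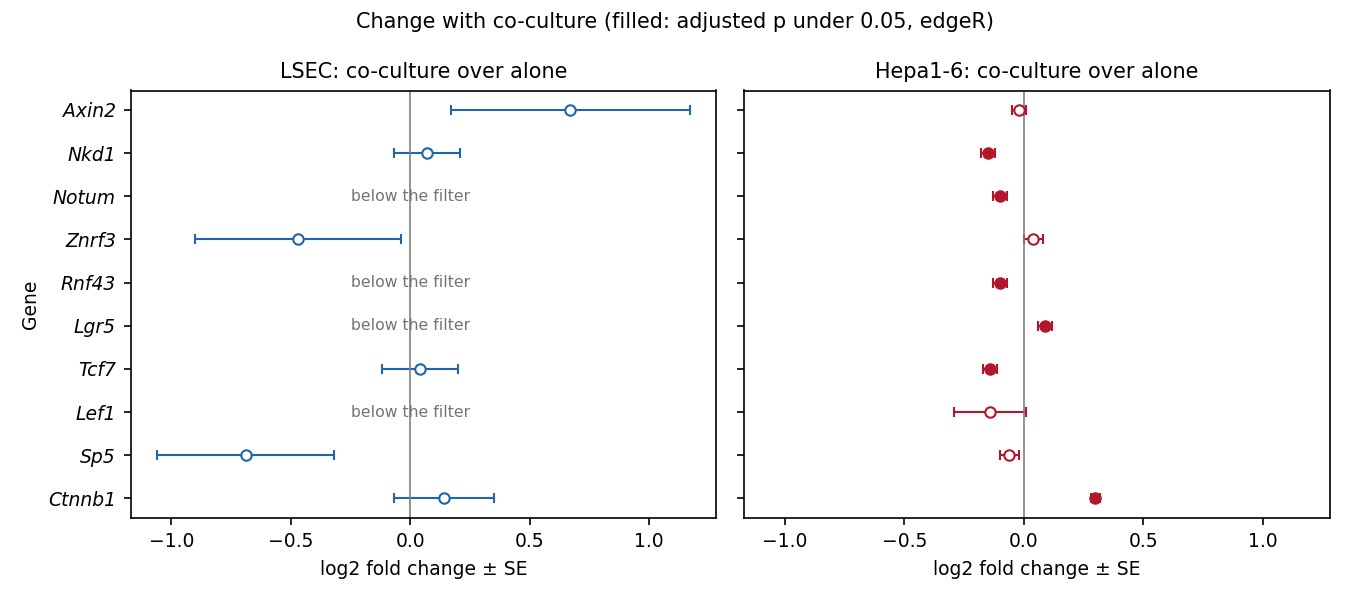
Log2 fold change of each member, co-culture over the same cells alone, with bars of 1 standard error, for LSECs (left) and Hepa1-6 cells (right), where filled points passed an adjusted p of 0.05. In Hepa1-6 cells 6 members are filled and Ctnnb1 is farthest from 0 at 0.30, and in LSECs none is filled and 4 fell below the filter on counts.

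Of the other listed pathway genes, 70 were tested in Hepa1-6 cells, and 9 rose and 8 fell. That is 24.3% called, where 15.5% of all tested genes were, 8.50% higher and 7.03% lower. The receptor gene Fzd8 stood at 21.7, 20.5 and 20.4 CPM in co-culture, against 13.6, 12.9 and 12.8 CPM alone, a log2 fold change of 0.67 (SE 0.07, edgeR adjusted p = 6.17e-07). Lgr4, the R-spondin receptor related to Lgr5, fell to 36 CPM in co-culture, against 43.2 CPM alone (log2 -0.27, edgeR adjusted p = 0.000406). Of 16 tested receptors 2 rose and 2 fell. Among 3 tested Wnt genes Wnt10a rose (log2 0.18, edgeR adjusted p = 0.00977), and Wnt6 had a log2 fold change of 0.07 (edgeR adjusted p = 0.159).

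Targets outside the member list moved in both directions in Hepa1-6 cells, where 8.50% of all tested genes rose and 7.03% fell. Myc, a growth regulator that β-catenin can turn on, fell to 188 CPM in co-culture, against 250 CPM alone (log2 -0.41, SE 0.03, edgeR adjusted p = 5.76e-10). Fosl1 and Id2 rose, by a log2 of 0.40 and 0.32, and Sox9 fell, by -0.19, so that of 12 tested targets 3 rose and 2 fell. Of 8 tested targets of the pericentral hepatocyte 2 rose and 2 fell. Glul, the glutamine synthetase of that zone, fell to 279 CPM, against 328 CPM alone (log2 -0.23, SE 0.03, edgeR adjusted p = 2.69e-06), while Oat rose by a log2 of 0.11. Dvl1 fell (log2 -0.17) and Fbxw11 rose (log2 0.10) among 15 genes of Dishevelled and the destruction complex, and Tle4, a corepressor, was the 1 gene of 15 TCF partners that changed (log2 -0.26).

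The third comparison asked how LSECs differ when Hepa1-6 cells share their medium. No member passed the test. Of 10 members 6 passed the filter on counts and edgeR called 0, where 3.09% of 15256 tested genes were called. The count at an unadjusted p under 0.05 was also 0, among 14.0% of tested genes, and DESeq2 called 0, among 8.53%. The libraries of all 10 members overlapped between the LSEC groups. The median log2 fold change of the 6 was 0.06, against -0.027 over all tested genes.

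The fold changes of the 6 had wide errors. Axin2 had a log2 fold change of 0.67 (SE 0.50, edgeR adjusted p = 0.729), and 0.37 without replicate 1. Sp5 had -0.69 (SE 0.37, edgeR adjusted p = 0.536), and -0.32 without replicate 1. Znrf3 had -0.47 (SE 0.43, edgeR adjusted p = 0.808), and -0.38 without it. Nkd1 had 0.07 (SE 0.14), and 0.18 without replicate 1. Tcf7 had 0.04 (SE 0.16), and 0.09 without it.

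Ctnnb1 had a log2 fold change of 0.14 (SE 0.21, edgeR adjusted p = 0.922) over all 6 libraries. LSEC replicate 1 deviated in the same way in both cultures, and replicates 2 and 3 deviated together whether or not their numbers matched. With the number as a replicate block Ctnnb1 rose by 0.15 (SE 0.05, edgeR adjusted p = 0.0424). Without replicate 1 of both cultures it rose by 0.10 (SE 0.04, edgeR adjusted p = 0.0407). Ctnnb1 was then 1 of 6 members called, among 33.3% of tested genes with the block and 36.4% without replicate 1. In these LSEC groups 2 of the 10 macrophage markers rose and 2 fell. Adgre1 stood at 529 CPM in co-culture and 119 CPM alone. Cd5l went the other way, with 14465 counts in co-culture and 50974 alone, as did Vsig4, with 1966 and 8251. The part of macrophage transcripts in the member values was not tested.

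Of 7 tested Wnt genes none was called in LSECs with edgeR, while 1 had an unadjusted p under 0.05 and DESeq2 called 1. With the replicate block 1 of 7, Wnt2, rose and 1, Wnt4, fell, and without replicate 1 of both cultures the same 2 of 6 did. Wnt2 stood at 76.4, 68.7 and 76.5 CPM in co-cultured LSECs, against 47.7, 42.3 and 40.5 CPM in LSECs alone. The groups did not overlap, and the log2 fold change was 0.73 (SE 0.14) with an edgeR adjusted p of 0.0506, 5.4e-05 with the replicate block and 1.35e-07 without replicate 1. Rspo3 stood at 36, 31.5 and 33 CPM in co-culture, against 23.7, 24.8 and 20.1 CPM alone (log2 0.51, SE 0.14), with an edgeR adjusted p of 0.157, 0.00157 with the block and 0.000675 without replicate 1. Wls had a log2 fold change of -0.18 (edgeR adjusted p = 0.869), -0.17 with the block (0.0285) and -0.22 without replicate 1 (0.000266).

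Of the other listed pathway genes, 76 were tested in LSECs and 3 were called, all 3 of them targets. That is 3.95%, where 3.09% of all tested genes were called. Cd44, a hyaluronan receptor, stood at 120, 128 and 122 CPM in co-culture, against 35.9, 48 and 45.5 CPM alone (log2 1.48, SE 0.14, edgeR adjusted p = 0.00491). Id2 rose (log2 0.81, edgeR adjusted p = 0.0481) and Fosl1 fell (log2 -1.37, edgeR adjusted p = 0.00613). With the replicate block 28 were called, 15 higher and 13 lower, or 36.8%, where 33.3% of all tested genes were. Without replicate 1 the count was 29 of 77, or 37.7%, where 36.4% of all tested genes were called. These shares lie near those of all genes.

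The last comparison tested whether the co-culture effect differed between LSECs and Hepa1-6 cells, in 1 model of all 12 libraries. edgeR called 0 of 10 members, where 2.35% of 17346 genes were called. At an unadjusted p under 0.05 it gave 2, Lgr5 and Nkd1, among 11.6% of genes, and DESeq2 called 0, among 7% of genes. On simulated data this edgeR fit recovered 0% of changes at 1.5-fold and 16.4% at 2-fold. A member's difference of such size could therefore be missed. The difference, LSEC effect minus Hepa1-6 effect, was 0.26 for Nkd1 on the log2 scale (SE 0.11, edgeR adjusted p = 0.415) and -0.13 for Ctnnb1 (SE 0.22, edgeR adjusted p = 1).

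Nkd1, Znrf3 and Lef1 were called with the replicate block, 3 of 10, among 17.3% of genes. Without LSEC replicate 1 the count was 4, Nkd1, Znrf3, Ctnnb1 and Notum, among 18.8% of genes. Nkd1 then differed by 0.32 (edgeR adjusted p = 0.0174), Znrf3 by -0.43 (0.0487) and Ctnnb1 by -0.21 (0.00267). The Lef1 and Notum calls rest on 8 and 27 counts in 1 LSEC group and 0 in the other among the libraries fitted, so that their size is not given.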

How the data were processed

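RNA of 12 libraries, 3 per group, was sequenced as polyA-selected, stranded, paired-end libraries, per the labels' protocols. HISAT2, StringTie and mm10 are named in the submitters' processing notes; versions, annotation release and strand setting are not given in the sources used here. The authors deposited whole-number estimated counts per gene and transcript, an expected count being the unit of the tests. The deposited TPM values of the authors were used to compare levels between genes, and the deposited FPKM values of the authors were not used. No per-sample column was left unmapped.

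Each comparison was fitted across all genes with edgeR 4.0.16 (robust quasi-likelihood F-test, filterByExpr, TMM, Benjamini-Hochberg at 0.05) in R 4.3.3, on the 2 groups compared, or on all 12 libraries for the difference between cells. Each SE was computed from its F statistic. Levels in CPM share 1 TMM scale over the 12 libraries, and fold differences between cells are ratios of mean CPM. Alternatives used DESeq2 1.42.0, limma 3.58.1 on log2(TPM + 1) or log2(TPM + 0.1), no count filter, a replicate block and each library left out. Leaving out LSEC libraries from the ratios of mean CPM was added after the data were seen. The fit was tested on simulated data with 200 changed genes: at 2-fold it recovered 98.5% in the Hepa1-6 and 11.9% in the LSEC co-culture comparison. False calls made up 6.93% and 4.48% of the calls there. Between the cells they made up 7.34% in co-culture and 10.2% alone. The changed genes were drawn from those with higher mean counts, so that members near the limit of counting are not covered. Deviations from group means of same-numbered LSEC libraries correlated at 0.854, 0.593 and 0.631, above the limit of 0.1 set for pairs. The main LSEC fits nevertheless held no block, and results with the replicate block are given beside them. Replicate 2 in co-culture also correlated at 0.659 with replicate 3 alone, and replicate 3 in co-culture at 0.600 with replicate 2 alone. Replicate 1 correlated at -0.773 to -0.707 with replicates 2 and 3 of the other culture. The block thus mainly sets replicate 1 apart, and a pairing of replicates 2 and 3 by number is not shown. Same-numbered Hepa1-6 values were 0.057, -0.015 and -0.025.

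All 10 members are named. From each pathway list, up to 4 genes with the smallest p in a comparison are named, with Wnt2, Wnt9b and Rspo3. The members and lists were chosen with earlier results of these data known. Promoter windows come from RefSeq on GRCm38.p6.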

Additional observations from a re-analysis of the deposited data

Results flagged for a closer look

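In 4 listed pathway genes the co-culture effect differed between LSECs and Hepa1-6 cells by the interaction test over 12 libraries, given as LSEC effect minus Hepa1-6 effect on the log2 scale. These were 4 of 93 tested, or 4.3%, where 2.35% of all tested genes were called. With the replicate block 17 of 93 were called, or 18.3%, where 17.3% of all tested genes were. Without LSEC replicate 1 of both cultures the count was 18 of 92, or 19.6%, against 18.8% of all tested genes. With DESeq2 it was 11 of 93, or 11.8%, against 7% of all tested genes. The shares with the block and without replicate 1 lie near those of all genes. The difference was 1.48 for Cd44 (edgeR adjusted p = 0.000442), which stood at 123 CPM in co-cultured LSECs and 43.1 CPM in LSECs alone, and at 411 CPM in co-cultured Hepa1-6 cells and 401 CPM in Hepa1-6 cells alone. It was -1.74 for Fosl1 (edgeR adjusted p = 0.00014), with 29.5 CPM in co-cultured LSECs and 74.4 CPM in LSECs alone, and 45 CPM in co-cultured Hepa1-6 cells and 34.1 CPM in Hepa1-6 cells alone. It was 0.74 for Glul (edgeR adjusted p = 0.00528), with 263, 260 and 270 CPM in co-cultured LSECs and 173, 196 and 191 CPM in LSECs alone, and 269, 281 and 286 CPM in co-cultured Hepa1-6 cells and 331, 328 and 325 CPM in Hepa1-6 cells alone. It was 3.56 for Wnt6 (edgeR adjusted p = 0.0431), which rests in LSECs on 64 counts over the co-culture libraries and 5 over those alone, and its size is therefore imprecise. The part of Hepa1-6 material in these Wnt6 counts was not tested.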

How the results depend on the processing

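All 10 members were called between the cells under every alternative run, in co-culture and alone, and leaving out single libraries moved the count of all genes between 11282 and 14633 in co-culture and between 10428 and 14452 alone. On the TPM scale the same count of 9 members lay lower in every LSEC library.

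For Hepa1-6 co-culture, limma on log2(TPM + 1) and on log2(TPM + 0.1) called 1 member each, of 1287 and 1318 genes, and a fit of all 12 libraries called 0, of 44 genes. Without single libraries the count was 3 to 5 members, of 1583 to 2165 genes. Axin2 ranged from -0.03 to 0.01.

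For LSEC co-culture, DESeq2 called 1301 genes, the replicate block 5082 (1 member) and the fit of all 12 libraries 1485. Without replicate 1 of both cultures it was 5559 (1 member), and without single libraries 146 to 490 genes and 0 members. Ctnnb1 then ranged from -0.02 to 0.26 and Tcf7 from -0.02 to 0.10.

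For the difference between cells, DESeq2 called 1214 genes, limma 828 and 635, the replicate block 3008 (3 members), and the fit without LSEC replicate 1 of both cultures 3305 (4 members). Single libraries left out gave 216 to 726 genes and 0 members. Over these single-library fits Lef1 ranged from -5.04 to 0.14 and Rnf43 from -0.29 to 0.94. Lef1 was 0.03 with limma on log2(TPM + 1) and -5.05 without LSEC replicate 1 of both cultures. The cause of these changes was not tested.

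The replicate block called 6 members for Hepa1-6 co-culture, where numbers do not pair the libraries. In LSECs, levels of Notum, Lgr5, Lef1 and Rnf43 lie near the limit of counting, and the simulated recovery at 2-fold was low, so that a member's change of that size could be missed.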
